A study of Mus musculus with 4 samples.

Results

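The family of miR-15, miR-16, miR-195 and miR-497 is a group of microRNAs that share a seed, the short stretch near the 5′ end of a microRNA that pairs with target transcripts. Its members were taken by name: every row for miR-15a, miR-15b, miR-16, miR-195 or miR-497, with or without the star that marks the arm of a hairpin listed as its passenger strand. This gave 8 of the 508 endogenous microRNAs listed: mmu-miR-15a, mmu-miR-15a*, mmu-miR-15b, mmu-miR-15b*, mmu-miR-16, mmu-miR-16*, mmu-miR-195 and mmu-miR-497, written without the mouse prefix below. The libraries were made from the small RNA of embryonic fibroblasts (MEFs, connective tissue cells cultured from mouse embryos) of 2 strains, given in the labels as shLuc.1309 and shLuc.1309;ROSA-rtTA. By the strain name, the cells of all 4 libraries have an shRNA transgene (a short hairpin processed like a microRNA precursor) directed at luciferase, which mouse cells do not make. ROSA-rtTA adds the reverse tetracycline transactivator, which switches on a tetracycline-responsive promoter in the presence of doxycycline (dox), and ROSA names the Rosa26 locus. Each strain was sequenced once without and once with dox, so each of the 4 groups is 1 library. They are called shLuc -dox and shLuc +dox (no transactivator) and rtTA -dox and rtTA +dox (with ROSA-rtTA). Dose and duration of dox, and how many embryos a culture came from, were not given in the sources used here.

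MicroRNAs are cut from hairpin transcripts and guide Argonaute proteins to messenger RNAs that hold a match to the seed. The miR-15/16 group is known for restraining the cell cycle: its targets include D-type and E-type cyclins, cyclin-dependent kinases and the survival factor Bcl2, and loss of the miR-15a and miR-16-1 locus is a well-known event in chronic lymphocytic leukaemia. miR-195 and miR-497 are known as members that increase after birth in the heart and hold back cardiomyocyte division.

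The mature sequences are shown because the seed defines the family and because the members differ in the bases that follow it. Those of RefSeq (build GRCm38.p6) matched the deposited sequences of all 8 members, with U for T. Capitals mark the seed, bases 2 to 8 from the 5′ end.
miR-16: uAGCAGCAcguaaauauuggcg
miR-195: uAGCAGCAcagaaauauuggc
miR-15a: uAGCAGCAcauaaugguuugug
miR-15b: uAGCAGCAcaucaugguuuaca
miR-497: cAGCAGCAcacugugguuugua
miR-322: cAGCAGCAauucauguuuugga
miR-503: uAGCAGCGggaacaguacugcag
miR-15b*: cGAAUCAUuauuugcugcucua
The 5 guide arms share the seed AGCAGCA. Among all listed microRNAs 2 others had AGCAGC at bases 2 to 7: miR-322, with the same full seed, and miR-503, whose seed ends in G. Counted from 1 at the 5′ end, miR-16 and miR-195 differ by 2 substitutions (G10A and U11G, miR-16 first) and by 1 base of length. Reads could therefore have been assigned to either. No other listed microRNA came within 2 mismatches of a member. miR-15a and miR-15b differ by 4 substitutions (A12C, G20A, U21C and G22A, miR-15a first), which leave miR-15b with fewer G bases, 4 of 22 against 6 of 22. miR-15b* has 3 G bases of 22.

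The hairpins lie in 3 clusters. miR-15b (chromosome 3, 69009775 to 69009796, plus strand) and 1 copy of miR-16 (69009918 to 69009939) lie in an intron of Smc4, a condensin subunit that packs chromosomes for division, on the strand of that gene, with 121 bases between these arms. miR-15a (chromosome 14, 61632075 to 61632096, minus strand) and the other copy of miR-16 (61631936 to 61631957) lie in an intron of Dleu2, a long non-coding RNA, also on its strand, with 117 bases between these arms. miR-497 (chromosome 11, 70234730 to 70234751, plus strand) and miR-195 (70235062 to 70235082) have 310 bases between them. Positions are those of GRCm38 in RefSeq, with hosts from GENCODE release M21. The 2 hairpins that hold miR-16 are shown with the miR-15b hairpin because they set what a count of miR-16 can mean. Capitals mark the arms that were counted.
mir-15b: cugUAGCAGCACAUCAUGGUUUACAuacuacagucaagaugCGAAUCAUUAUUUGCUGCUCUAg
mir-16-2: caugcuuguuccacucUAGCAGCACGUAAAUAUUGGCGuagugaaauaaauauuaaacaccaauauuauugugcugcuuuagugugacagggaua
mir-16-1: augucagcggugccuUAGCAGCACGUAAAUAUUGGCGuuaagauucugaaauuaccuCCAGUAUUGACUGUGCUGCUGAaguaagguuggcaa
The mature miR-16 of mir-16-2 (chromosome 3) and of mir-16-1 (chromosome 14) is the same sequence, so its counts sum both loci. The sequence of miR-16* matched mir-16-1 alone, and miR-15b, miR-15b*, miR-15a and miR-15a* each matched 1 hairpin. The passenger arms of mir-16-2, mir-195 and mir-497 were not analysed here.

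The libraries held 6383594 to 8780954 counts. Levels are given as CPM, counts per 1000000 endogenous microRNA counts, with the shRNA left out of the total. The shRNA made up 0.0725% to 0.0786% of all counts in 3 libraries and 2.38% in rtTA +dox, the induced library. Fibroblast and mesenchymal markers fixed by name were abundant: 8 of 9 were listed, at a summed 427480 to 445141 CPM. Markers of other cell types summed to far less than these. The epithelial list had 5.49 to 20.3 CPM (7 of 7 listed, 0 past the floor defined below). The pluripotent list had at most 1.20 (5 of 7 listed, 0 past the floor). The blood list had 52.5 to 82.2 (4 of 6 past the floor) and the endothelial list 120 to 175 (2 of 2). The liver marker miR-122, also past the floor, had 2.51 to 3.99. The muscle list ran from 246 CPM (shLuc +dox) to 592 (rtTA +dox), with 3 of 4 past the floor. The neuronal list ran from 697 to 884 (rtTA +dox), with 7 of 7. In rtTA +dox both sums were above the 558 CPM of miR-15b and of miR-15a. The part of these cell types in the values below was not tested. In bulk RNA, fewer cells that make a microRNA and less of it per cell cannot be told apart. Groups of 1 library allow no replicate check: intervals are 95% and cover counting error only, no p-value is given, and comparisons are between libraries, not conditions.

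miR-16 dominated the family in each library, and the order of the guide arms was miR-16, miR-15b, miR-15a, then miR-195 and miR-497. The family summed to 15451 CPM in shLuc -dox, 13577 in shLuc +dox, 14442 in rtTA -dox and 10926 in rtTA +dox. It thus held 1.55%, 1.36%, 1.44% and 1.09% of the endogenous counts, lowest in the induced library. miR-16 alone measured 12971, 11664, 11971 and 9751 CPM in the same order. It ranked between 16 and 19 among all microRNAs and made up 84.0%, 85.9%, 82.9% and 89.2% of the family's counts. Its highest level was 1.33 times its lowest.

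miR-15b, the next most abundant, measured 1648 CPM (shLuc -dox), 1092 (shLuc +dox), 1650 (rtTA -dox) and 558 (rtTA +dox). The libraries without dox were nearly equal, and the induced library was the lowest. Its rank among all microRNAs was 69 to 88 in the first 3 libraries and 121 in the induced one. miR-15a measured 747, 710, 702 and 558 CPM, with the induced library again lowest but a range of only 1.34-fold. In that library miR-15b and miR-15a had nearly the same counts, 4193 and 4191, whereas miR-15b was 2.21 times (2.13 to 2.28), 1.54 times (1.48 to 1.60) and 2.35 times (2.28 to 2.42) as abundant as miR-15a in the others.

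miR-15b*, the passenger arm of the miR-15b hairpin, measured 58.6 CPM (shLuc -dox), 90.7 (shLuc +dox), 90.0 (rtTA -dox) and 33.0 (rtTA +dox). This arm was lowest in the induced library, like its guide arm, but the library without rtTA and dox was also below the remaining pair. The chromosome 11 members were scarce. miR-195 measured 13.0, 9.02, 13.1 and 8.79 CPM on 83, 59, 115 and 66 counts, and miR-497 measured 11.0, 7.95, 11.9 and 11.7 CPM on 70, 52, 104 and 88 counts. miR-195 and miR-497 did not differ beyond counting error within any library: the ratio of miR-195 to miR-497 was 1.19 (0.852 to 1.65), 1.13 (0.768 to 1.68), 1.11 (0.841 to 1.46) and 0.75 (0.537 to 1.04).

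The remaining passenger arms were scarce. miR-16* had 17, 18, 27 and 30 counts (2.67, 2.75, 3.08 and 4.00 CPM), which is under 0.05% of the counts of miR-16 and miR-16* together in each library. miR-15a* had 0, 5, 5 and 5 counts. The exact interval of the count of 0, in shLuc -dox, runs up to 0.578 CPM, and a fixed level of 3 counts there is 0.470 CPM. Comparisons between libraries used microRNAs with a mean CPM worth 20 or more counts in the least deep library, a floor of 3.14 CPM that 372 of the 508 microRNAs passed. Of the 8 members 6 passed. miR-16* fell just short with a mean of 3.12 CPM, beside miR-450b-5p at 3.13 below the floor and miR-1197 at 3.16 above it, and miR-15a* was well under it at 0.50.

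**Figure D1:**
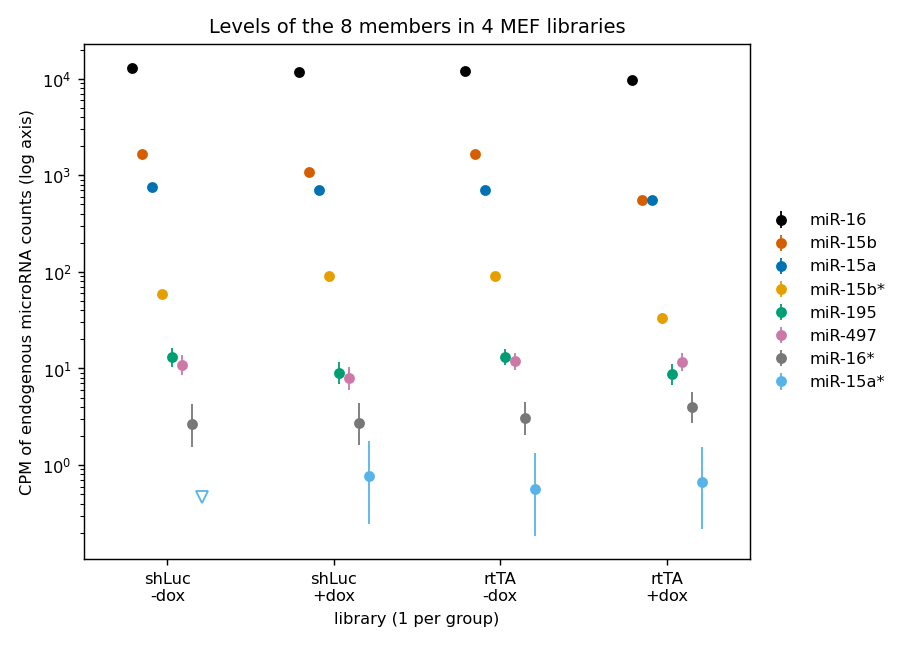
Levels of the 8 members in CPM (log axis) in the 4 libraries, with exact 95% counting intervals (hidden by the points where narrow). The open triangle marks a count of 0, drawn at the level of 3 counts. miR-15b lies above miR-15a in 3 libraries and at the same 558 CPM in rtTA +dox.

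Dox in rtTA cells, rtTA +dox against rtTA -dox, compares cells with the shRNA switched on and off. To be counted as higher or lower, a microRNA had to differ at least 2-fold in CPM with an exact binomial interval of the ratio that left out equality. By this rule miR-15b and miR-15b*, both arms of 1 hairpin, fell. That is 2 of the 6 members past the floor, against 8.6% of all 372 microRNAs (32). No member was higher, against 1.34% (5). Falling 2.95-fold, miR-15b had a log2 ratio of -1.56 (-1.61 to -1.51), the fifth lowest of all. For miR-15b*, 2.73-fold down, it was -1.45 (-1.66 to -1.24), with rank 11 from the lowest. At 1.5-fold the same members were lower, against 17.7% of all microRNAs (66), and none was higher, against 11% (41).

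The other members were nearer to equality in this comparison. miR-16 was at -0.30 (-0.31 to -0.28) and miR-15a at -0.33 (-0.39 to -0.27), both below 0 beyond counting error but within 1.5-fold. miR-195 was at -0.58 (-1.04 to -0.13) on 66 and 115 counts. miR-497 was at -0.02 (-0.44 to 0.41), a value just above 0 under TMM and DESeq2 scaling, without the 10 most abundant microRNAs, and with the trend on base composition subtracted. The median of the 6 members was -0.45, against -0.06 over all 372. The summed family was at -0.40 (-0.42 to -0.39), and without miR-16 at -1.07 (-1.11 to -1.04), a sum in which miR-15b had 14478 of 21679 counts without dox and 4193 of 8821 with it.

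The miR-15b values stand beside a trend over all microRNAs. In this comparison the log2 ratio went up with the percentage of G in the mature sequence (Pearson r = 0.72 across the 372 microRNAs, which are not independent and share the 2 libraries). The arms that fell were the members poorest in G, 18.2% for miR-15b and 13.6% for miR-15b*, while the others had 23.8% to 27.3%. With the linear trend subtracted, miR-15b was at -1.15 (-1.20 to -1.10), still counted as lower and with rank 2 from the lowest. miR-15b* was then at -0.84 (-1.05 to -0.63) and no longer counted. By that measure 1.34% of all microRNAs (5) were lower and 0.806% (3) higher. miR-15a (-0.31), miR-16 (-0.27) and miR-195 (-0.41) were then each somewhat nearer to 0, and miR-497 was at 0.01.

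**Figure D2:**
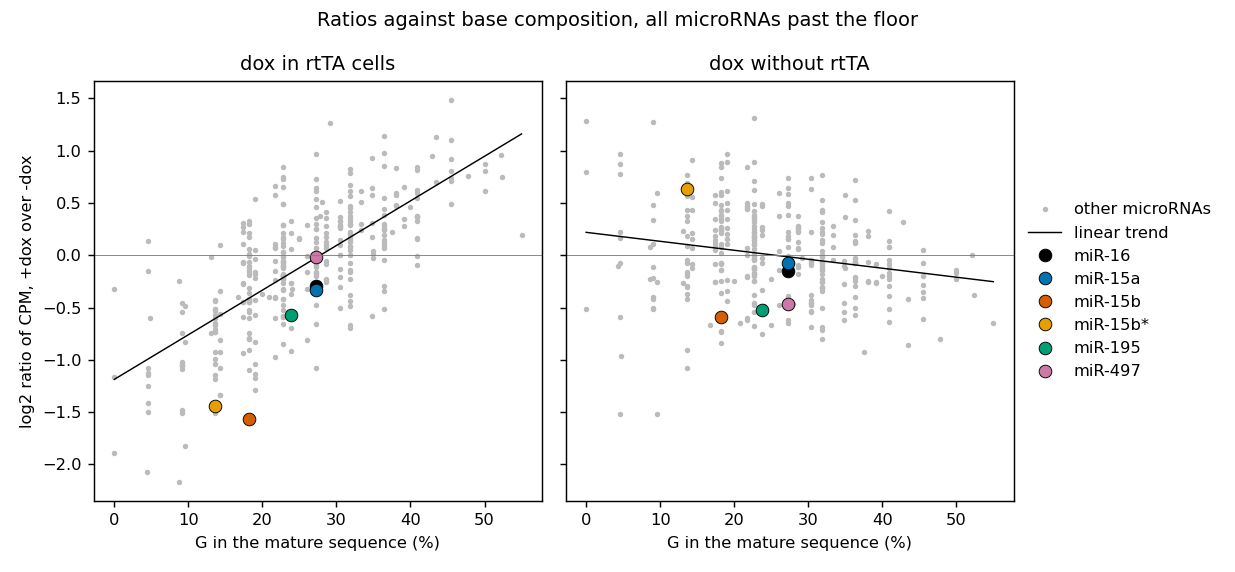
Log2 ratio of CPM, +dox over -dox, against the percentage of G in the mature sequence for 372 microRNAs, in rtTA cells (left) and without rtTA (right), with the linear trend. miR-15b (-1.56) and miR-15b* (-1.45) lie below the trend on the left, while on the right miR-15b is at -0.59 and miR-15b* at 0.63.

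Dox without rtTA, shLuc +dox against shLuc -dox, shows dox with the shRNA uninduced. No member was counted as higher or lower, against 0.806% higher (3) and 0.806% lower (3) of all microRNAs. The arms of the miR-15b hairpin pointed opposite ways. miR-15b was at -0.59 (-0.64 to -0.55), 1.51-fold lower with dox, and miR-15b* at 0.63 (0.44 to 0.82), 1.55-fold higher. Each was past 1.5-fold, as were 7.8% (29, lower) and 7.53% (28, higher) of all microRNAs. The trend on G was weak here and ran the other way (r = -0.20). With it subtracted, still no member was counted, against 0.806% higher (3) and 1.34% lower (5). miR-16 was at -0.15 (-0.17 to -0.14) and miR-15a at -0.07 (-0.13 to -0.01). miR-195 was at -0.53 (-1.04 to -0.03) and miR-497 at -0.46 (-1.01 to 0.07), on 52 to 83 counts each. All 5 guide arms were below 0, where 54.0% of all microRNAs (201) were. The median was -0.31 for the 6 members and -0.46 for the guide arms, against -0.04 over all microRNAs. The family total was at -0.19 (-0.20 to -0.17).

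The dox ratios with and without rtTA share no library and can be set against each other. For miR-15b the ratio with rtTA was lower by a difference of -0.97 (-1.03 to -0.90, delta-method interval). For miR-15b* the difference was -2.07 (-2.35 to -1.80), the only member at least 2-fold apart (miR-15b joined it, at -1.002, with the shRNA included in the library totals, a setting chosen after seeing the data). Of all microRNAs 12.4% (46) were apart in that direction and 5.65% (21) in the other. The differences of miR-16 (-0.14) and miR-15a (-0.26) were small, those of miR-195 (-0.05, -0.69 to 0.60) and miR-497 (0.45, -0.21 to 1.10) were within counting error. With the trend on G subtracted from both sets, the differences were -0.49 for miR-15b and -1.37 for miR-15b*.

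rtTA without dox, rtTA -dox against shLuc -dox, compares the strains with the shRNA uninduced in both. No member was counted, against 0.538% higher (2) and 1.34% lower (5) of all microRNAs. miR-15b was equal within counting error (0.00, -0.03 to 0.04), as were miR-195 (0.01, -0.41 to 0.44) and miR-497 (0.11, -0.34 to 0.57). miR-16 was at -0.12 (-0.13 to -0.10) and miR-15a at -0.09 (-0.14 to -0.03), where the median over all microRNAs was -0.07. miR-15b* stood out from its guide arm at 0.62 (0.44 to 0.80), 1.54-fold higher with rtTA and with rank 363 of 372 from the lowest. It alone was past 1.5-fold, against 2.42% of all microRNAs higher (9) and 6.99% lower (26). The log2 ratio had almost no trend on G here (r = -0.004), so subtracting it shifted all ratios by nearly the same amount. No member was then counted, against 0.806% higher (3) and 1.08% lower (4).

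rtTA with dox, rtTA +dox against shLuc +dox, takes its induced library from the first comparison above and its other dox library from the second, so its values are not independent of theirs. miR-15b* fell, at -1.46 (-1.68 to -1.24), 1 of 6 members against 14.2% of all microRNAs (53). No member was higher, against 2.42% (9). miR-15b was at -0.97 (-1.02 to -0.91), a difference of 1.95-fold just inside the threshold, which it passed when the shRNA was included in the library total. miR-16 was at -0.26 (-0.27 to -0.24), miR-15a at -0.35 (-0.41 to -0.29) and miR-497 at 0.56 (0.05 to 1.08). miR-195 was at -0.04 (-0.57 to 0.49), a value above 0 under TMM and DESeq2 scaling, which moved every ratio of this comparison by 0.10. The log2 ratio went up with G here too (r = 0.69). With the trend on G subtracted, which also puts miR-195 above 0, no member was counted, and miR-15b was at -0.42 and miR-15b* at -0.68. Of all microRNAs 3.49% (13) were then lower and 2.15% (8) higher. At 1.5-fold both arms of miR-15b were lower, against 24.2% of all microRNAs (90), and no member was higher, against 13.7% (51).

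**Figure D3:**
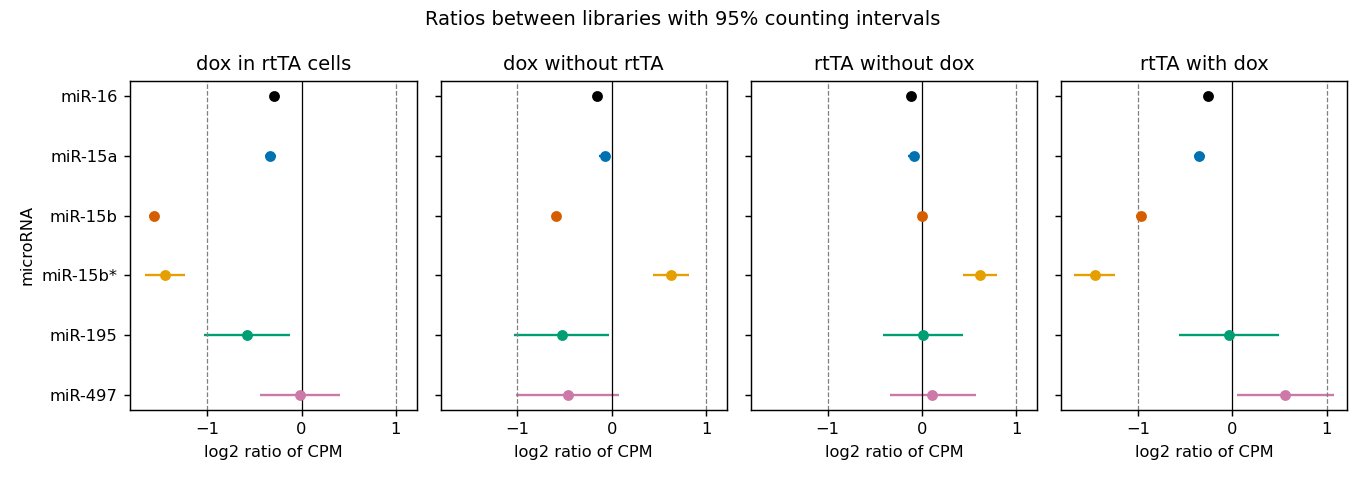
Log2 ratios of CPM of the 6 members past the floor in the 4 comparisons, with exact 95% counting intervals (hidden by the points where narrow); dashed lines mark 2-fold. Beyond the lower line lie miR-15b (-1.56) and miR-15b* (-1.45) with dox in rtTA cells and miR-15b* (-1.46) for rtTA with dox.

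Ratios between members within a library do not depend on how libraries are scaled. The trend on G, however, does not cancel between members that differ in G. miR-15b has 18.2% G, while miR-15a and miR-16 both have 27.3%. For every 100 counts of miR-16 there were 5.76 counts of miR-15a in shLuc -dox (5.59 to 5.93), 6.09 in shLuc +dox (5.91 to 6.27), 5.86 in rtTA -dox (5.72 to 6.02) and 5.72 in rtTA +dox (5.55 to 5.91). miR-15a and miR-16 thus kept a near-constant ratio over the 4 libraries. For miR-15b these values were 12.7 (12.4 to 13.0), 9.36 (9.13 to 9.59), 13.8 (13.5 to 14.0) and 5.73 (5.55 to 5.91). The libraries with dox were lower than those without in both strains, and the induced library was the lowest. The ratio of miR-15b to miR-16 was 2.41-fold lower with dox in rtTA cells (log2 -1.27, -1.32 to -1.22) and 1.36-fold lower without rtTA (-0.44, -0.49 to -0.40). These values still hold the trend on G. With it subtracted, miR-15b was at -1.15 and miR-16 at -0.27 with dox in rtTA cells, a smaller gap. Since counts of miR-16 sum the Smc4 and Dleu2 copies, the output of the miR-15b locus cannot be separated from that of the miR-15a locus in miR-16.

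The share of the passenger arm in the miR-15b hairpin varied as well. miR-15b* made up 3.44% (3.10% to 3.80%, Clopper-Pearson) of both arms' counts in shLuc -dox, 7.67% (7.09% to 8.29%) in shLuc +dox, 5.17% (4.83% to 5.54%) in rtTA -dox and 5.58% (4.93% to 6.30%) in rtTA +dox. The extremes were the libraries without rtTA, and the rtTA libraries overlapped. The odds of the passenger arm were higher with dox without rtTA by a log2 ratio of 1.22 (1.03 to 1.41), past 2-fold, as in 3.2% of 125 hairpins (4), with 2.4% (3) past it in the other direction. With dox in rtTA cells the log2 odds ratio was 0.12 (-0.09 to 0.33). Both arms were thus lower in the induced library by amounts that, without the G trend subtracted, did not differ beyond counting error. With it subtracted they did, at -1.15 (-1.20 to -1.10) for miR-15b and -0.84 (-1.05 to -0.63) for miR-15b*. In that comparison 4.8% of the hairpins (6) were past 2-fold upward and 15.2% (19) downward. For rtTA the log2 odds ratio was 0.62 (0.43 to 0.80) without dox, with 2.4% (3) and 1.6% (2) of the hairpins past 2-fold up and down. With dox it was -0.49 (-0.71 to -0.27), with 7.2% (9) and 17.6% (22). The share of miR-16* was 0.0205% (0.0120% to 0.0329%) in shLuc -dox and 0.0410% (0.0276% to 0.0585%) in rtTA +dox, with overlapping intervals.

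**Figure D4:**
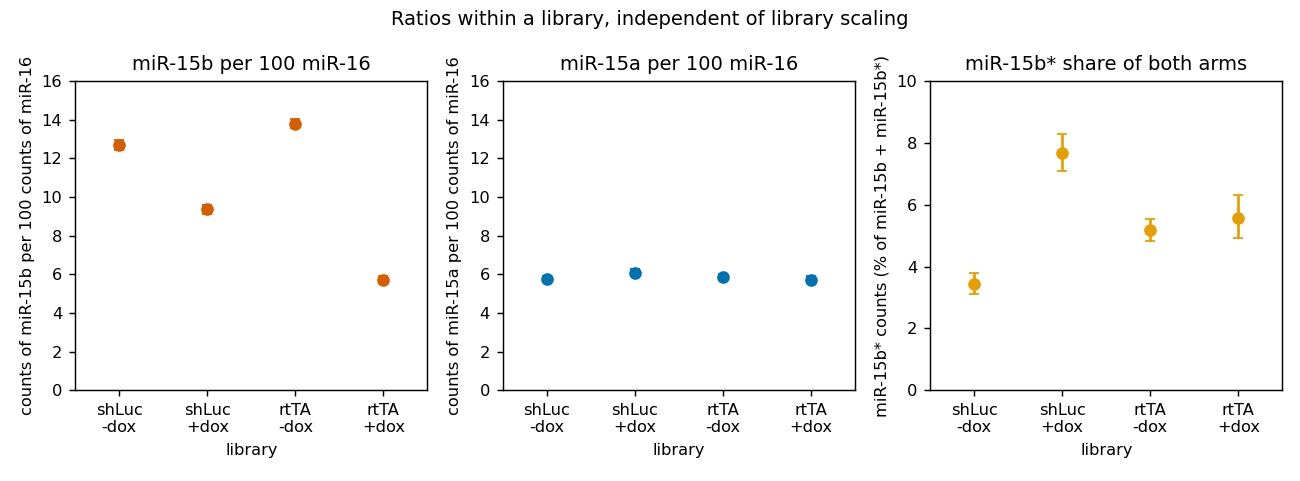
Counts of miR-15b and of miR-15a per 100 counts of miR-16, and the miR-15b* share of the miR-15b hairpin's counts in percent, in the 4 libraries with exact 95% intervals. miR-15a stays between 5.72 and 6.09 per 100, while miR-15b ranges from 5.73 to 13.8. miR-15b has 18.2% G, miR-15a and miR-16 have 27.3%, and the trend on G is not subtracted.

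The patterns over the 4 libraries were compared by the Euclidean distance between log2 CPM values, each centred on its own mean. Over 4 libraries many microRNAs lie close by, so the distances are a description. miR-15a and miR-16 were 0.07 apart, closer than either was to any non-member (miR-690 at 0.08 from miR-15a, miR-412 at 0.11 from miR-16). These non-members had 18.2% and 20% G, against 27.3% for miR-15a and miR-16. miR-15b was 0.84 to 1.37 from the other members, where its median distance to all non-members was 1.29. Its nearest non-members were miR-382* (0.19), miR-299* (0.36) and miR-466i (0.37), with 9.09%, 13.6% and 0% G. They are the closest of many, so their distances are small by selection. miR-15b* was nearest to miR-374 (0.14), let-7c-2* (0.21) and let-7c-1* (0.34), with 13.6%, 4.55% and 9.09% G. miR-195, with 23.8% G, was nearest to miR-92b (0.13, 18.2% G). miR-497, with 27.3% G, was nearest to miR-181a-2* (0.10, 22.7% G).

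miR-322 and miR-503, which carry the same core seed from a cluster on the X chromosome, had other levels across the libraries than miR-15b. miR-322 measured 1905 CPM (shLuc -dox), 1371 (shLuc +dox), 1519 (rtTA -dox) and 1611 (rtTA +dox), and miR-503 measured 761, 734, 481 and 914 CPM. The induced library was the highest for miR-503 and in the middle of the range for miR-322. With dox in rtTA cells miR-322 was at 0.09 (0.05 to 0.12) and miR-503 at 0.93 (0.87 to 0.98), short of 2-fold. They have 22.7% and 34.8% G, and with the trend on G subtracted they were at 0.30 and 0.63, against -1.15 for miR-15b. miR-15b against miR-322 within a library was 3.13-fold lower with dox in rtTA cells (log2 -1.65, -1.71 to -1.59) and 1.09-fold lower without rtTA (-0.12, -0.18 to -0.06). All guides with AGCAGC at bases 2 to 7 together summed to 18055 CPM (shLuc -dox), 15588 (shLuc +dox), 16348 (rtTA -dox) and 13414 (rtTA +dox), so the sum was 1.22-fold lower with dox in rtTA cells (log2 -0.29) and 1.16-fold lower without rtTA (-0.21).

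Other microRNAs known to restrain or favour proliferation were taken from a list of 26 (let-7 guides and miR-98, the miR-34 family, miR-26, miR-24, miR-17~92 and miR-106b~25 guides, miR-221 and miR-222), all past the floor. With dox in rtTA cells 0 of 26 were higher and 0 lower, against 1.34% (5) and 8.6% (32) of all 372 microRNAs. The median of the list was -0.04. Their ratios ran from -0.92 (miR-26b) and -0.70 (miR-92a) to 0.49 (let-7b) and 0.58 (miR-34c). None was as low as miR-15b, which had rank 5 from the lowest of all 372. G content differs too: 23.8% for miR-26b, 45.5% for let-7b and 34.8% for miR-34c, against 18.2% for miR-15b. With the trend on G subtracted still 0 of 26 were counted, against 1.34% lower (5) and 0.806% higher (3) of all microRNAs. For dox without rtTA none of the 26 was counted, against 0.806% higher (3) and 0.806% lower (3) of all microRNAs. The median was -0.06, with ratios from -0.55 for miR-17 to 0.47 for miR-26b. For rtTA without dox none was counted, against 0.538% higher (2) and 1.34% lower (5) of all microRNAs. The median was 0.13, with ratios from -0.74 for miR-34b-5p to 0.64 for miR-25. For rtTA with dox miR-26b alone was lower, 1 of 26 against 14.2% of all microRNAs (53), and none was higher, against 2.42% (9). miR-26b was at -1.19, a call lost with the trend on G subtracted, and the median of the list was 0.00.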

How the data were processed

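The deposited files hold raw counts of reads, 1 whole number per microRNA and library, with mature sequences, per the file headers. The aligner, the mismatches allowed, the handling of reads that match several microRNAs, and the database and build used by the authors were not given in the sources used here. Per the labels, RNA was extracted with Trizol and phenol-chloroform, and growth is given as 24 degrees C. A microRNA with no row in a library got a count of 0. Libraries held 6383594, 6545093, 8780954 and 7690978 counts in shLuc -dox, shLuc +dox, rtTA -dox and rtTA +dox. CPM, log2 ratios, exact conditional binomial intervals and shares were computed in Python 3.11.15 with scipy 1.17.1. Differences of log2 ratios and odds ratios used delta-method intervals with 0.5 added to each count. Reads carried no molecular identifiers that the sources name, so PCR copies count as reads, and intervals and floors cover counting error only. No test was run, since groups hold 1 library. TMM factors came from edgeR 4.0.16 and size factors from DESeq2 1.42.0. Arms were paired by name. Named microRNAs are all members, other carriers of AGCAGC at bases 2 to 7, up to 3 nearest patterns per member past the floor, and at most the 2 highest and 2 lowest of the proliferation list per comparison. Members and lists were chosen with earlier results of these data known.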

Additional observations from a re-analysis of the deposited data

Results flagged for a closer look

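miR-15b* moved in opposite directions in the 2 settings of the same contrast, with counting intervals that excluded equality in both. Its log2 ratio for dox was -1.45 with rtTA and 0.63 without. For rtTA it was -1.46 with dox and 0.62 without. These are the same 4 libraries taken 2 ways, so they are 1 pattern. With 1 library per group, the difference between the settings was not tested against replicate spread.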

How the results depend on the processing

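Counts of calls were recomputed under TMM, DESeq2 size factors, totals without the 10 most abundant microRNAs or with the shRNA, subtraction of the G trend, summed miR-16 and miR-195, other floors, 1.5-fold, and without star arms. Family totals had the 4 scalings and the G trend, and single member ratios these and the summed pair. Ratios and distances between members and arm shares do not depend on scaling, but the G trend stays in them where G content differs. Members counted changed as follows. With dox in rtTA cells 2 became 1 with the G trend subtracted (miR-15b) and 1 without star arms. With rtTA under dox 1 became 2 with the shRNA in the total, 0 with the G trend subtracted, 2 at 1.5-fold and 0 without star arms. At 1.5-fold there were 2 with dox without rtTA and 1 with rtTA without dox, against 0. The family total kept its sign throughout. With dox in rtTA cells it was -0.37 (TMM), -0.37 (DESeq2), -0.38 (without the 10), -0.44 (with the shRNA) and -0.34 (G trend); with dox without rtTA -0.23, -0.21 and -0.17 (TMM, DESeq2, without the 10); with rtTA without dox -0.075, -0.048, -0.078 and, with the G trend, -0.024; with rtTA with dox -0.21, -0.21, -0.29, -0.35 and -0.19 in the first order. The dox difference with the G trend subtracted was -0.49 for miR-15b and -1.37 for miR-15b*. Its scalings, and those of the proliferation list, were added after seeing the data. They gave -0.89 (TMM) and -1.002 (shRNA in the total, past 2-fold) for miR-15b, and -0.065 (TMM), -0.088 (DESeq2) and -0.18 (shRNA) for miR-16. The near-zero difference of miR-195 changed sign under TMM (0.031), DESeq2 (0.0079) and the G trend (0.14). Over all microRNAs the counts 37, 6, 7 and 62 (comparisons in the order of the text) became 107, 57, 35 and 141 at 1.5-fold. With the G trend subtracted they were 8 for dox in rtTA cells and 21 for rtTA with dox. For dox without rtTA and rtTA without dox they were 10 and 14 with a floor of 5 counts, and 11 and 15 with none. Without star arms dox without rtTA gave 2. Except where the construction sets it (threshold, floor, arms dropped), the cause was not tested. Single member ratios never reversed a call. Summing miR-16 and miR-195 left the miR-16 share within its interval. Depth limits miR-195, miR-497 and the scarcer passenger arms. No replicate could be left out, and no paired analysis was possible because each group is 1 library.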
